A study of Mus musculus with 18 samples.

Results

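Genes of the antioxidant and glutathione enzymes were followed in the thyroid, pituitary and hypothalamus of mice carrying a mutant thyroid hormone receptor β. The set has 40 genes, chosen by symbol from the 24054 genes of the deposited tables: glutathione peroxidases, peroxiredoxins, the thioredoxin system, catalase and superoxide dismutases, the genes that supply glutathione, glutathione transferases, and Nfe2l2, Keap1, Nqo1 and Hmox1. RNA-Seq was done on 18 libraries, from 3 WT and 3 K146Q mice in each of the 3 tissues. All mice were untreated males, 3 months of age, on the C57BL/Ntac strain. K146Q mice are homozygous for a germline knock-in, present in every cell, that replaces a sumoylated lysine of THRB with glutamine. The WT mice are numbered 1, 2 and 43 and the K146Q mice 60, 62 and 83. The thyroid is described first because it makes hydrogen peroxide for hormone synthesis.

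Thyroid follicular cells oxidize iodide with hydrogen peroxide made by dual oxidase at the apical membrane, and they hold a broad set of enzymes that remove peroxide which escapes. Glutathione peroxidases use reduced glutathione, peroxiredoxins use thioredoxin, and catalase needs neither. Superoxide dismutases turn superoxide into hydrogen peroxide. NRF2, the product of Nfe2l2, is held low by KEAP1 and drives many of these genes when it is released.

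Depth ran from 14902330 to 21230050 reads per library, and 3 reads were worth 0.133 to 0.190 CPM, the unit of all values here. The members with the fewest reads were Gpx2 outside the thyroid, with 5 to 22 reads per library, and Gstm2 and Gpx7 in the hypothalamus, with 16 to 37 and 30 to 50 reads. The mutated gene itself, Thrb, was at 14.9 to 16.3 CPM in the WT thyroid and 4.98 to 7.19 in the K146Q thyroid, and at 97.7 to 106 and 142 to 184 CPM in the pituitary. These are levels of Thrb, which do not show the base change, so they are no check of the genotype. Tshb, the β subunit of TSH, was at 235 to 593 CPM in the WT pituitary and 5600 to 8183 in the K146Q pituitary. Thyroglobulin (Tg), the defining transcript of the thyroid, took 293439 to 357296 CPM in WT and 83869 to 130421 CPM in K146Q thyroids.

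In WT mice the thyroid held the highest level of most of these genes. Of the 40 genes, 29 had their highest WT mean in the thyroid, 7 in the pituitary and 4 in the hypothalamus, and for 22 of the 29 all 3 WT thyroids lay above every other WT library. Levels between genes are compared per kilobase of exon. On that scale Sod1, the cytosolic superoxide dismutase, led in the thyroid at 595 ± 45.7 CPM per kilobase (SD, n = 3), followed by Gpx4, which reduces lipid peroxides in membranes, at 416 ± 52.6. The next 6 genes in the order, from Txnip at 230 to Prdx1 at 197, were not separated from their neighbours by more than the spread between mice. Gpx2, the glutathione peroxidase best known from the gut epithelium, read 243, 137 and 298 CPM in the thyroids of WT mice 1, 2 and 43, against 0.286 to 1.25 CPM in the pituitary and 0.298 to 0.870 in the hypothalamus. Sod3, the secreted superoxide dismutase, was 31.2 times and Mgst1, a membrane-bound glutathione transferase, 14.1 times higher in the WT thyroid than in the WT pituitary. The pituitary instead led in Gpx3, the secreted glutathione peroxidase, at 365 ± 61.4 CPM per kilobase, its highest member, against 168 ± 11.3 in the thyroid. Slc7a11, the cystine transporter, and Gstm5 were highest in the hypothalamus. These differences between tissues were not tested. They also depend on the shared normalization, under which all values of a WT thyroid summed to 1230827 to 1269759. In the other WT libraries the sums were 896894 to 1030067. For Gsta4 and Txnrd2 the thyroid mean was 1.02 and 1.04 times that of the hypothalamus, and for Gstm1 1.06 times that of the pituitary.

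**Figure D1:**
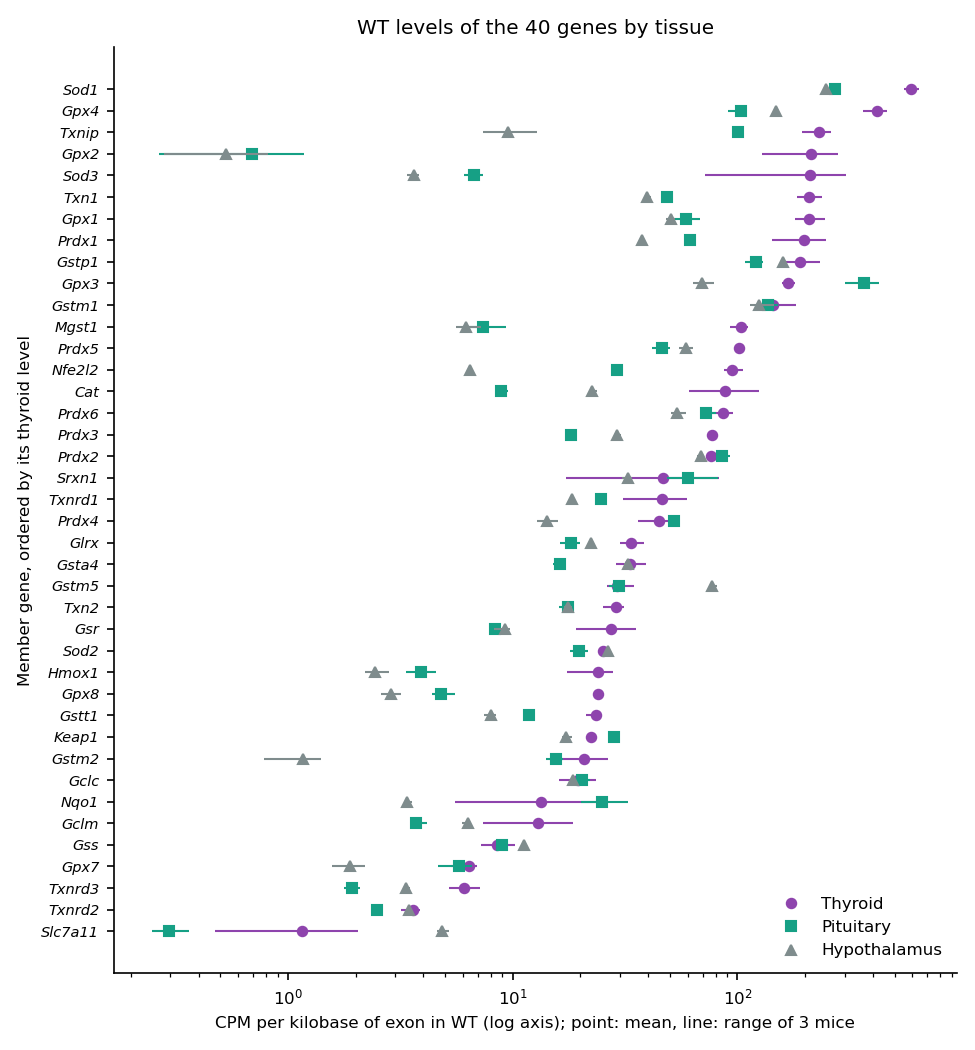
Level of each of the 40 genes in WT mice, in CPM per kilobase of exon on a log axis, with the mean as a point and the range of 3 mice as a line. The thyroid points lie to the right for 29 of the 40 genes, and those of Gpx2, Sod3 and Mgst1 lie far to the right of both other tissues.

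In the K146Q thyroid the antioxidant genes moved in both directions. By limma 16 of the 40 passed an adjusted p of 0.05, 8 higher and 8 lower in K146Q mice. This is 40% of the set, beside 37.8 percent of all 15200 genes tested (19.7 percent higher and 18.1 percent lower), so the share is close to the background of a tissue in which a large part of the transcriptome differed. The median log2 fold change was -0.06 over the 40 genes and -0.03 over all genes, and the median absolute log2 fold change 0.40 and 0.31. The genotypes did not overlap for 20 of the 40, against 52.3 percent of all genes. Permuted exactly, 3 mice per genotype allow no two-sided p below 0.1, and each gene without overlap stood at that value. The count fell to 10 (4 higher, 6 lower, with 24.0 percent of all genes called) without K146Q mouse 62. With totals recomputed after leaving out the 10 highest genes it became 7 higher and 12 lower (40.2 percent of all genes called). Over all genes this setting gave 2496 higher and 3613 lower, in place of 2992 and 2747. Of the 16 genes, 9 passed under each of the 16 alternatives tried: Gpx3, Gpx4, Gpx7, Prdx3, Prdx4, Prdx6, Sod2, Gstm1 and Mgst1.

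**Figure D2:**
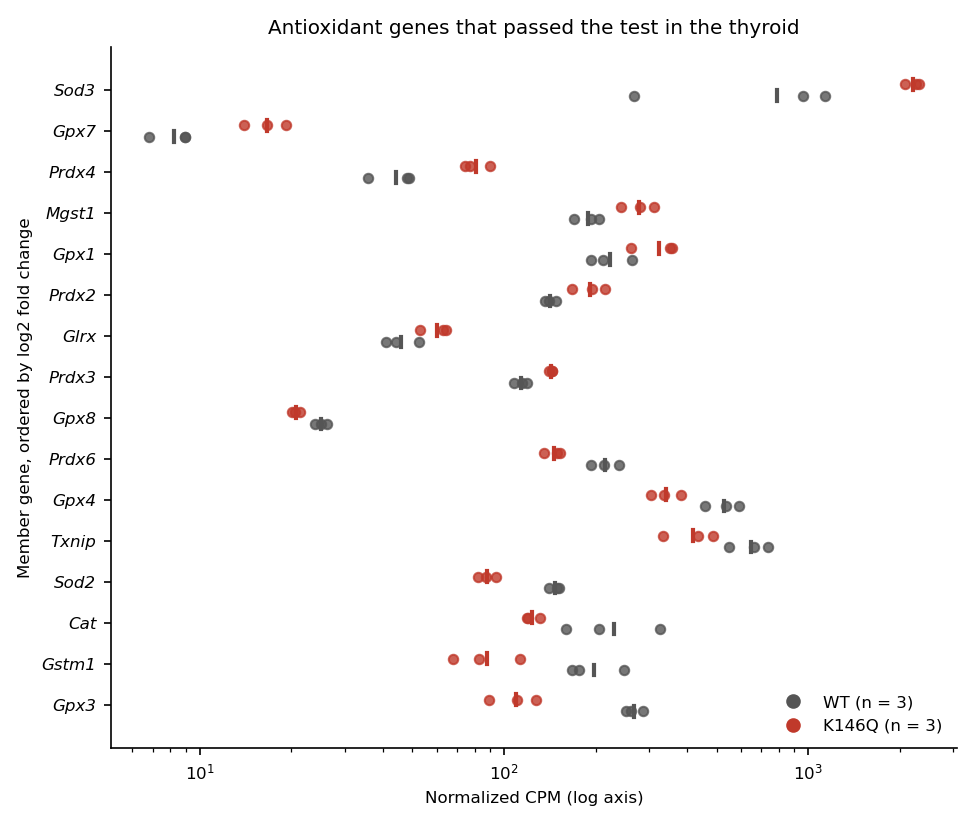
Normalized CPM (log axis) of the 16 genes that passed the test in the thyroid, with 1 point per mouse, grey for WT and red for K146Q, and a vertical tick at each mean. Gpx3 and Gstm1 show the largest falls and Sod3 the largest rise over all 6 mice, with WT mouse 2 far below the other Sod3 values, and Gpx1 is the gene whose genotypes overlap.

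Among the 6 glutathione peroxidases, 2 rose, 3 fell and 1 did not pass the test. Gpx3 (chromosome 11, 54902453 to 54910377, GRCm38) measured 262, 252 and 287 CPM in the WT thyroids (mice 1, 2 and 43 in this order throughout) and 128, 110 and 89.5 CPM in the K146Q thyroids (mice 60, 62 and 83). All K146Q thyroids were below all WT thyroids, and the log2 fold change was -1.30 (SE 0.13, adjusted p = 0.00039). Gpx4 was at 537, 459 and 592 CPM in WT and 382, 335 and 304 CPM in K146Q mice, again without overlap, a log2 fold change of -0.64 (SE 0.13, adjusted p = 0.00809). Gpx7, a peroxidase of the endoplasmic reticulum that passes oxidizing equivalents to protein disulfide isomerase, went the other way, from 8.97, 6.83 and 8.96 CPM to 19.1, 16.7 and 14 CPM, a log2 fold change of 0.97 (SE 0.16, adjusted p = 0.00336). Gpx8, its relative in the same compartment, fell from 23.9, 26.2 and 25.1 CPM in WT to 21.3, 20.5 and 20.1 CPM in K146Q mice, a log2 fold change of -0.27 (adjusted p = 0.0453), which missed the threshold in each of the 6 fits that left out a mouse. Gpx1, the main cytosolic peroxidase, was at 212, 193 and 263 CPM in WT and 350, 356 and 262 CPM in K146Q mice. K146Q mouse 83 thus lay within the WT range, and the rise of 0.53 on the log2 scale (SE 0.16, adjusted p = 0.0328) was lost without WT mouse 1 or 2 or without K146Q mouse 60 or 62. Gpx2 was at 267, 192 and 232 CPM in K146Q mice, within its WT range (log2 fold change 0.09, SE 0.27, adjusted p = 0.828).

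Peroxiredoxins gave 3 rises and 1 fall among 7 genes with sulfiredoxin. Prdx4, the peroxiredoxin of the endoplasmic reticulum, was at 48.8, 35.7 and 48.0 CPM in WT and 90.2, 77.4 and 74.2 CPM in K146Q thyroids, a log2 fold change of 0.87 (SE 0.14, adjusted p = 0.00258). Prdx3, the mitochondrial form, rose from 115, 108 and 119 CPM to 144, 144 and 141 CPM, a small change of 0.33 (SE 0.07, adjusted p = 0.0102) with little spread. Prdx2, a cytosolic form, rose from 140, 136 and 149 CPM to 215, 194 and 167 CPM (log2 fold change 0.43, SE 0.11, adjusted p = 0.0159), and this call was lost without K146Q mouse 62. Prdx6, which also acts on oxidized phospholipids and takes its electrons from glutathione, fell from 213, 193 and 239 CPM to 153, 149 and 136 CPM (log2 fold change -0.55, SE 0.10, adjusted p = 0.00476). The genotypes did not overlap for any of these 4 genes. Prdx1 was higher in all 3 K146Q mice, at 737, 701 and 644 CPM against 513, 361 and 631 CPM, with a log2 fold change of 0.50 (SE 0.20, adjusted p = 0.0812), and Prdx5 was lower in all 3 at -0.29 (SE 0.11, adjusted p = 0.0751). Neither passed the test.

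Superoxide dismutases and catalase changed most unevenly. Sod2, the mitochondrial enzyme, was at 140, 152 and 150 CPM in WT and 93.8, 87.4 and 82.0 CPM in K146Q mice, a log2 fold change of -0.75 (SE 0.08, adjusted p = 0.000491). Sod3 (chromosome 5, 52363791 to 52371418) was at 958, 267 and 1135 CPM in WT and 2303, 2253 and 2081 CPM in K146Q mice, a log2 fold change of 1.74 (SE 0.49, adjusted p = 0.0274). WT mouse 2 stood far below the other WT mice. Without it the Sod3 change was 1.08, still past the test and smaller in size than the fall of Gpx3, and the Sod3 call was lost whenever 1 of the 3 K146Q mice was left out. Catalase (Cat), the peroxisomal enzyme, was at 206, 159 and 325 CPM in WT and 131, 119 and 120 CPM in K146Q mice (log2 fold change -0.84, SE 0.23, adjusted p = 0.0245), and its call was lost in the same 3 fits. Sod1 was at 381 ± 29.3 CPM in WT and 397 ± 51.9 in K146Q mice (SD, n = 3; log2 fold change 0.05, adjusted p = 0.762).

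In the thioredoxin system 1 of 7 genes rose and 1 fell. Txnip, which binds and inhibits thioredoxin, was at 663, 547 and 739 CPM in WT and 433, 487 and 332 CPM in K146Q thyroids, without overlap, a log2 fold change of -0.64 (SE 0.17, adjusted p = 0.0225) that was lost without WT mouse 1 or 43 or K146Q mouse 83. Glrx, glutaredoxin, which removes glutathione from proteins, rose from 41.0, 44.2 and 52.6 CPM to 63.0, 64.5 and 52.9 CPM (log2 fold change 0.39, SE 0.12, adjusted p = 0.0381). The lowest K146Q value of Glrx lay just above the highest WT value, and its call did not hold in 4 of 6 fits that left out a mouse. The thioredoxins Txn1 and Txn2 and the cytosolic reductase Txnrd1 had log2 fold changes from -0.11 to 0.02. The other reductases, Txnrd2 and Txnrd3, were both at -0.42 (SE 0.17 and 0.14, adjusted p = 0.0942 and 0.0522).

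Of the glutathione transferases, which join glutathione to electrophiles, 1 fell and 1 rose among 7. Gstm1 (chromosome 3, 108012255 to 108017973) was at 176, 167 and 248 CPM in WT and 113, 83 and 67.7 CPM in K146Q mice, a log2 fold change of -1.17 (SE 0.21, adjusted p = 0.00439). Mgst1 rose from 194, 170 and 205 CPM to 311, 280 and 242 CPM, a log2 fold change of 0.55 (SE 0.12, adjusted p = 0.00937). The genotypes did not overlap for either. Gstm1, Gstm2 and Gstm5 lie in 1 cluster of near copies on chromosome 3, so reads may have been split between them, and the values of single Gstm genes are uncertain to that extent. Gstm2 was at 24.7 ± 6.49 and 16.6 ± 6.26 CPM (log2 fold change -0.58, adjusted p = 0.128), while Gsta4, Gstm5, Gstp1 and Gstt1 lay between -0.0069 and 0.24.

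None of the 5 genes that supply glutathione passed the test. Slc7a11 was at 20.3, 4.68 and 9.26 CPM in WT and 21.8, 16.7 and 26.3 CPM in K146Q thyroids (log2 fold change 1.10, SE 0.45, adjusted p = 0.0924), with WT mouse 1 inside the K146Q range. Gclc and Gclm, the subunits of the rate-limiting ligase, Gss, glutathione synthetase, and Gsr, glutathione reductase, had log2 fold changes from -0.58 to -0.30 and adjusted p from 0.0683 to 0.264. The regulators themselves were close to level. Nfe2l2 was at 261, 215 and 222 CPM in WT and 233, 237 and 286 CPM in K146Q mice (log2 fold change 0.11, SE 0.12, adjusted p = 0.486). Keap1 was at 101, 96.0 and 105 CPM against 102, 107 and 93.7 CPM, a log2 fold change of 0.0018 (SE 0.08, adjusted p = 0.989). Nqo1, a quinone reductase, was at 12.2, 8.61 and 41.3 CPM in WT and 8.13, 6.29 and 6.57 CPM in K146Q mice, a log2 fold change of -1.18 with an SE of 0.50 and an adjusted p of 0.101. Hmox1, heme oxygenase, was at -0.18 (SE 0.18, adjusted p = 0.461).

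**Figure D3:**
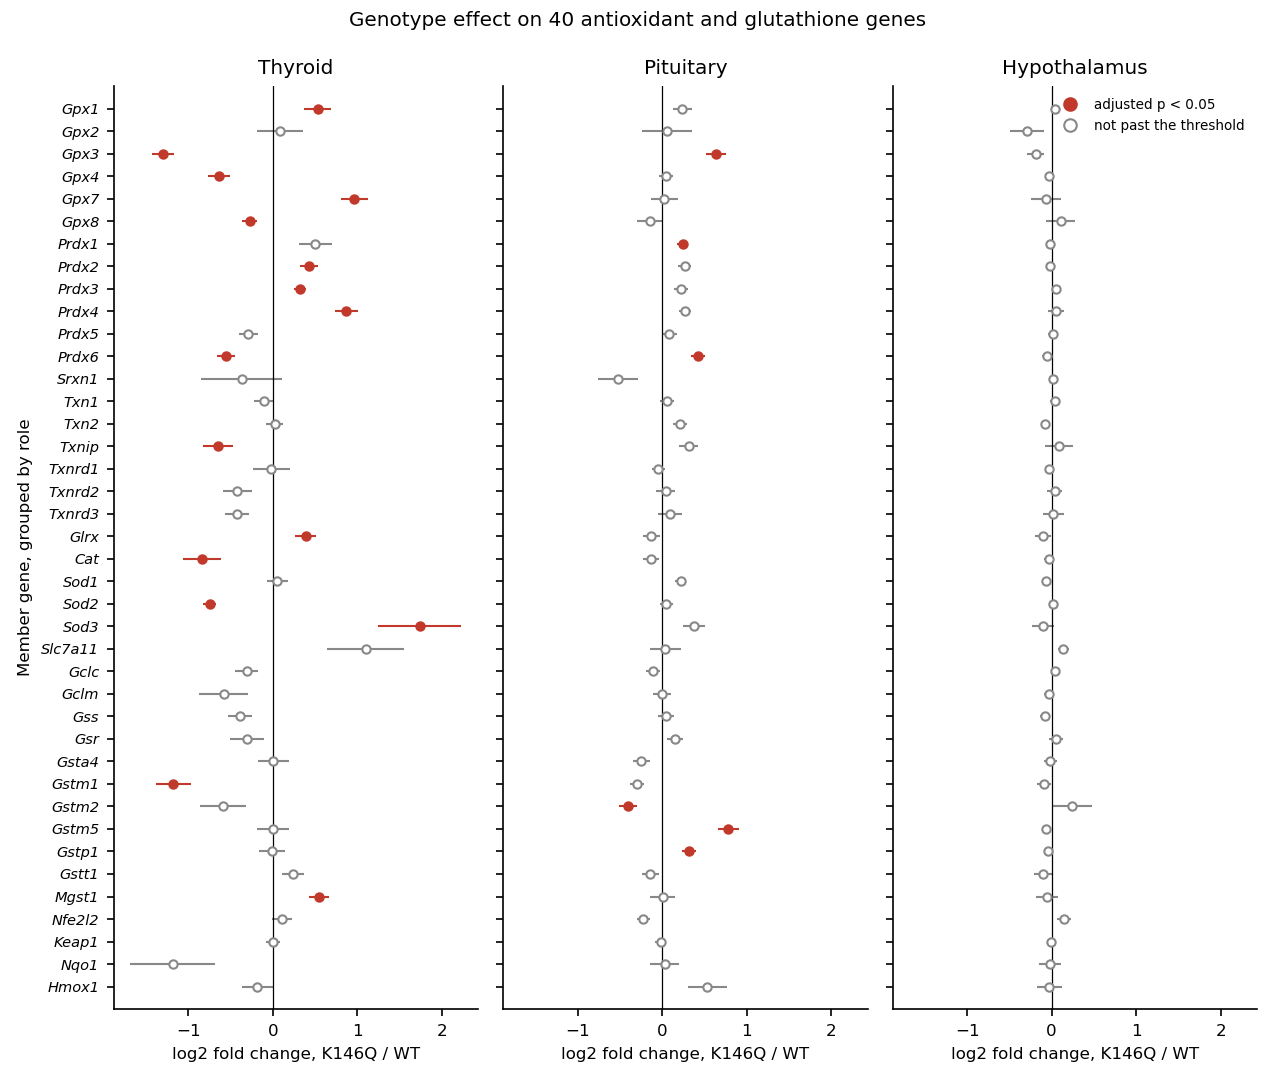
Log2 fold change of K146Q over WT for the 40 genes in thyroid, pituitary and hypothalamus, with bars of 1 SE, filled red where the adjusted p was below 0.05. The thyroid shows 8 higher and 8 lower, the pituitary 5 higher and 1 lower, and the hypothalamus points lie close to 0.

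The WT thyroids differed from each other in a pattern that many of these genes shared. WT mouse 2 was lowest and WT mouse 43 highest of the WT thyroids for 25 of the 40 genes (62.5%), against 19.3% of all genes tested. The order was noticed in these data and is given as a description. Srxn1, sulfiredoxin, which restores overoxidized peroxiredoxins, had 112, 48.3 and 233 CPM in the WT thyroids, a 4.82-fold range, and 78.4, 81.2 and 91.7 CPM in the K146Q thyroids, a 1.17-fold range. Gclm was at 71.0, 41.1 and 104 CPM in WT and 43, 42.9 and 48.8 CPM in K146Q mice. Txnrd1 was at 194, 127 and 243 CPM in WT and 174, 165 and 201 CPM in K146Q mice. Gsr was at 74.1, 51.1 and 94.3 CPM in WT and 59.0, 55.5 and 57.9 CPM in K146Q mice. For each of these 4 genes, and for Nqo1, the K146Q thyroids were closer together than the WT thyroids, and for Srxn1, Gclm, Txnrd1 and Gsr the K146Q values lay inside the WT range. Over the 40 genes the median SD on the log2 scale was 0.23 in WT and 0.15 in K146Q thyroids, against 0.15 and 0.15 over all genes tested. The SD was larger in WT than in K146Q thyroids for 23 of the 40 genes (57.5%), against 52.6% of all genes tested. Without WT mouse 2 the test called 20 genes (6 higher, 14 lower), with 31.7 percent of all genes called. Srxn1, Gclc, Gclm, Gss, Gsr, Nqo1 and Hmox1 were then called lower and Gpx1, Gpx8 and Glrx were lost. Marker levels of other tissues also differed between the WT thyroids: the summed level of 6 red cell genes was 402, 353 and 1938 CPM and that of 7 skeletal muscle genes 434, 5584 and 8296 CPM in mice 1, 2 and 43. Their part in the order was not tested. In the pituitary WT mouse 43 was highest for 25 of the 40 genes (62.5%, against 29.5% of all genes), but the lowest was WT mouse 1, for 25 of the 40, and the order seen in the thyroid held for 9 (22.5%, against 13.8% of all genes). Srxn1 was there at 137, 142 and 230 CPM in WT and 99.4, 91.0 and 164 CPM in K146Q mice, while in the hypothalamus it kept to 86.3 to 95.4 CPM.

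**Figure D4:**
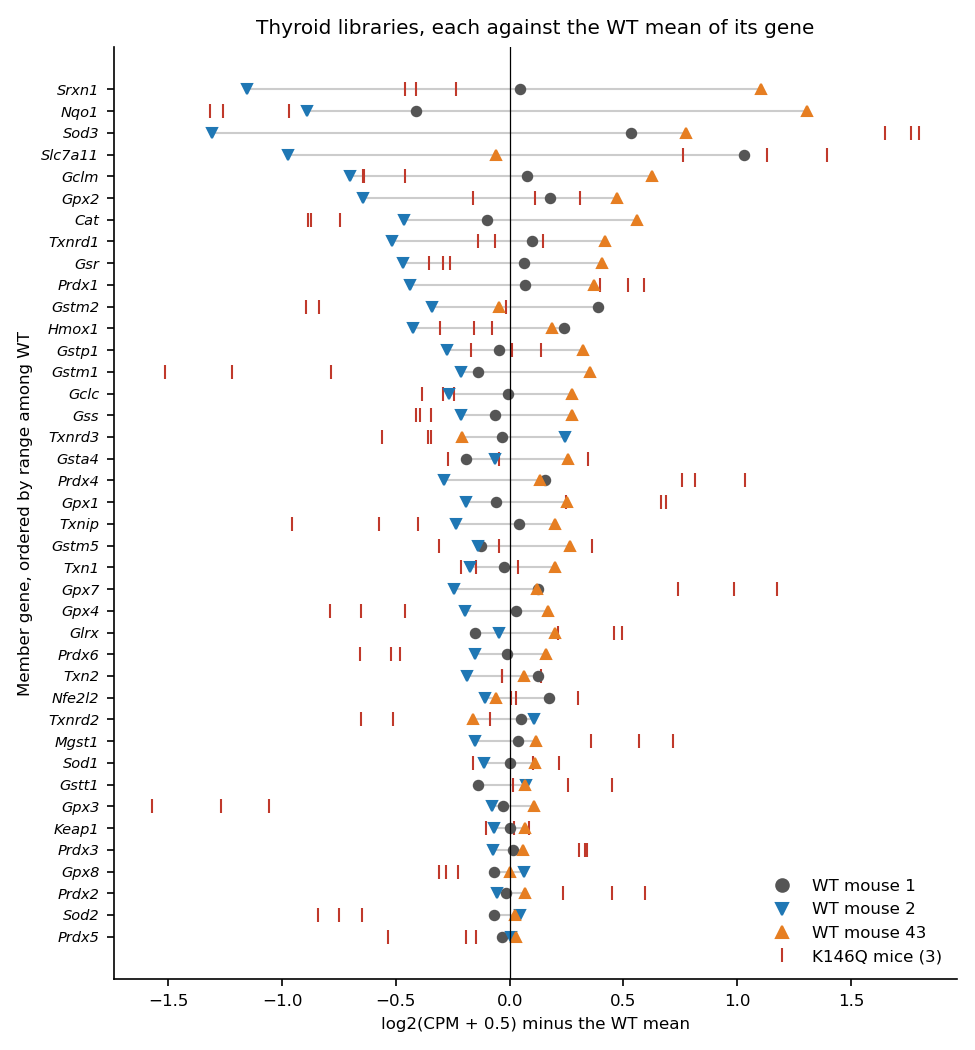
Thyroid value of each gene and mouse as log2(CPM + 0.5) minus the WT mean, with genes ordered by their range among WT mice. WT mouse 2 (blue) lies left and WT mouse 43 (orange) right for 25 of the 40 genes, and the K146Q mice (red ticks) lie close together for Srxn1, Gclm, Gsr and Sod3.

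Because several of these genes are textbook targets of NRF2, their promoters were searched for the core of its binding site, the antioxidant response element, written TGACNNNGC, on both strands of windows from 250 bases before to 50 after each transcript start (RefSeq, GRCm38.p6). A promoter entry was found for 34 of the 40 genes, with 42 windows. The core was in 8 of these windows (19.0%), against 12.4% of all 32851 windows, and belonged to Gclm, Gstm5, Mgst1, Nfe2l2, Prdx1, Sod1, Srxn1 and Txnrd1. WT mouse 2 was lowest and mouse 43 highest for 7 of these 8 genes and for 14 of the 26 genes whose windows lacked the core. The same held for 4 of the 6 genes with no promoter entry. Elements outside these windows were not searched, and a part of the core in the order was not tested. A match is a string of letters and not a shown binding site. The stretches around the core are printed for Gclm, Txnrd1 and Prdx1 and for the transferases Mgst1, which rose in the thyroid, and Gstm5, which rose in the pituitary. All of these genes followed the order of the WT mice in the thyroid. The cores of Txnrd1 and Mgst1 lie inside the genes, whose GENCODE M21 starts are 82833951 and 138140316. Their distances are to a transcript start further in. Each stretch reads 5′ to 3′ on the strand of its gene with the core in capitals, and all but that of Gstm5 carry the core on the opposite strand, read as GCNNNGTCA.
Gclm, chr3:122245403-122245451, + strand, core beginning 134 bases before the start: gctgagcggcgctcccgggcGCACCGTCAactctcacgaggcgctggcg
Txnrd1, chr10:82859094-82859142, + strand, 92 bases before: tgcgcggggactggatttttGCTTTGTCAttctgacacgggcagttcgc
Prdx1, chr4:116685446-116685494, + strand, 133 bases before: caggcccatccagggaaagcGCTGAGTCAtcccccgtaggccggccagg
Mgst1, chr6:138140451-138140499, + strand, 56 bases before: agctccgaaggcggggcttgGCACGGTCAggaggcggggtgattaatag
Gstm5, chr3:107895792-107895840, + strand, 42 bases before: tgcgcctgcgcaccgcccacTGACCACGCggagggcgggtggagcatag
The core of Prdx1 also contains TGAGTCA, the AP-1 motif, which overlaps it. The thyroid hormone response element known as DR4, a direct repeat of AGGTCA spaced by any 4 bases, was in none of the 42 windows and in 0.0152% of all windows, and the cAMP response element TGACGTCA was in none and in 1.79%.

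The genes around the 40 were read from lists of the same pathways, whose counts stand beside the 37.8 percent of all genes called in the thyroid (19.7 percent higher and 18.1 percent lower). Of 17 tested genes of hydrogen peroxide production, 7 rose and 5 fell in the K146Q thyroid (median log2 fold change 0.26). Duox2, the dual oxidase that feeds hormone synthesis, fell from 82.2, 71.2 and 78.5 CPM to 32.3, 40.1 and 48.2 CPM (log2 fold change -0.95, adjusted p = 0.00207). Duoxa2, its maturation factor, was at 54.7 ± 6.02 and 72.6 ± 12 CPM (SD, n = 3; log2 fold change 0.40, adjusted p = 0.0552). Among the rises were NADPH oxidase genes. Cyba, the small membrane subunit, rose from 94.1 ± 15.1 to 282 ± 34.6 CPM (log2 fold change 1.58). Rac2 and Ncf1, known from phagocytes, were at 1.46 and 1.35 on this scale and Nox4 at 1.33. NADPH is the electron source of both the glutathione and the thioredoxin systems. Of 16 genes listed under NADPH supply, 9 fell and 0 rose (median -0.38, beside -0.03 over all genes tested). Not all enzymes of this list make NADPH themselves. Aldh1l1, a folate enzyme that yields NADPH, fell from 23.6 ± 4.21 to 9.45 ± 1.97 CPM (SD, n = 3), and Nadk2, the mitochondrial NAD kinase, from 22.5 ± 0.510 to 12.4 ± 0.348 CPM. Tkt, transketolase, fell from 472 ± 53.0 to 265 ± 14.3 CPM, and Me2, a mitochondrial malic enzyme, from 126 ± 0.999 to 82.5 ± 2.80 CPM. Of 28 other glutathione genes 2 rose and 7 fell (median -0.08), led by Gstm7 at -1.64 and Chac1, which breaks glutathione down, at -1.53. Selenoprotein genes outside the 40 gave 3 rises, with Selenoh (0.86) and Selenon (0.75) the largest, and 2 falls among 22 (median -0.12). Other partners and targets of NRF2 gave 2 rises and 3 falls among 28 (median -0.18). The rises were Akr1b8 at 1.39 and Bach2 at 1.05. The shares called were 70.6% for hydrogen peroxide production and 56.2% for NADPH supply, above that background, and 32.1%, 22.7% and 17.9% for the other glutathione, selenoprotein and NRF2 lists, below it.

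Summed levels of cell type markers moved with genotype in the same thyroids. The summed level of 8 adipocyte genes was 996 to 1359 CPM in WT and 220 to 453 CPM in K146Q thyroids, with 7 of 8 lower. Parathyroid genes (4 of 4 lower) went from 10195 to 19238 CPM in WT to 1670 to 4747 CPM in K146Q mice. The 4 C cell genes, 3 lower and 1 higher, summed to 9269 to 15256 CPM in WT and 1331 to 3514 CPM in K146Q mice. Chga is counted in both the parathyroid and the C cell list. Of 9 follicular cell genes 4 were higher and 1 was lower, and their sum, most of it Tg, was 296640 to 359951 and 87145 to 133847 CPM. Tg was not the lower gene: it did not pass the test (log2 fold change -1.71, SE 5.14, limma adjusted p = 0.82). That SE includes the variance that the mean-variance trend gives at so high a level. It is far wider than the spread between the mice, so the limma test cannot decide for Tg. All its K146Q values nevertheless lay below its WT values. Leukocyte genes, with 4 of 6 tested higher, were at 184 to 365 CPM in WT and 510 to 619 CPM in K146Q mice. The 5 fibroblast genes, 3 higher and 2 lower, summed to 995 to 1254 and 2446 to 2821 CPM, and the 6 proliferation genes, all higher, to 48.0 to 73.8 and 173 to 221 CPM. None of the adipocyte, parathyroid or fibroblast genes was at 0 in every library. The part of cell content in the changes of Gpx3, Cat, Sod3 or Cyba was not tested. In whole tissue fewer cells of a type and less RNA per cell cannot be told apart.

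In the K146Q pituitary 6 of the 40 genes passed the test, 5 higher and 1 lower. This is 15% of the set beside 9.86 percent of all 15589 genes tested (6.36 percent higher and 3.5 percent lower). The median log2 fold change was 0.05 over the 40 genes and -0.0088 over all genes. Gpx3 was at 482, 586 and 678 CPM in WT and 954, 835 and 910 CPM in K146Q mice, a log2 fold change of 0.64 (SE 0.12, adjusted p = 0.00872). Gstm5 was at 26.6, 31.5 and 30.5 CPM in WT and 61.2, 47.4 and 45.7 CPM in K146Q mice, a log2 fold change of 0.78 (SE 0.12, adjusted p = 0.0038). These were the genes that passed in each of the 6 fits that left out a mouse, although Gpx3 missed the threshold under quantile normalization. Prdx6 was at 171, 170 and 201 CPM in WT and 253, 241 and 232 CPM in K146Q mice (log2 fold change 0.43, SE 0.08, adjusted p = 0.011), and its call was lost without K146Q mouse 60 or 62. Gstp1 rose from 88.9, 106 and 104 CPM to 125, 128 and 120 CPM (log2 fold change 0.32, adjusted p = 0.039). Prdx1 rose from 155, 155 and 159 CPM to 187, 184 and 183 CPM (0.24, adjusted p = 0.0369). Gstm2 fell from 16.7, 19.4 and 19.9 CPM to 14.4, 14.5 and 13 CPM (-0.40, adjusted p = 0.0463). The genotypes did not overlap for any of the 6, and the last 3 calls held in 0 or 1 of the 6 fits without a mouse. Without K146Q mouse 60 or 62 the count was 2 (4.05 and 4.87 percent of all genes), and without WT mouse 43 it was 3 (8.55 percent). Totals without the 10 highest genes turned the split to 3 higher and 3 lower. Over all 15589 genes the split turned likewise, from 991 higher and 546 lower to 837 and 879.

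Other peroxiredoxins pointed the same way in the pituitary without passing. Prdx2, Prdx3 and Prdx4 were higher in all 3 K146Q mice than in any WT mouse, with log2 fold changes of 0.27, 0.22 and 0.27 and adjusted p of 0.058, 0.133 and 0.0508. Gstm1 did not pass either, at 136 ± 14.8 CPM per kilobase in WT and 110 ± 3.59 in K146Q pituitaries (SD, n = 3). It was called lower by DESeq2, with totals without the 10 highest genes and without WT mouse 1. The genotypes did not overlap for 18 of the 40 genes, against 31.0 percent of all genes. None of the thioredoxin, superoxide dismutase, glutathione supply or NRF2 genes passed. The wider lists are read beside the 9.86 percent of all genes called in the pituitary (6.36 percent higher). Of 29 other glutathione genes 5 rose and 0 fell, among them Gsto1 (1.09), Ggt1 (0.97), which splits extracellular glutathione, and Slc3a2 (0.56), the partner chain of the cystine transporter. Of 13 genes of hydrogen peroxide production, 4 rose, with Cybb (0.95) and Ncf1 (0.61) ahead. No gene passed among 22 selenoprotein genes and 16 genes of NADPH supply, and 2 rose and 2 fell among 28 other NRF2 partners and targets. The summed level of 4 thyrotroph genes was 3485 to 4711 CPM in WT and 22563 to 29922 CPM in K146Q pituitaries, that of 4 somatotroph and lactotroph genes 116979 to 243862 and 69523 to 84146 CPM, and that of 7 leukocyte genes 52.3 to 64.8 and 89.4 to 153 CPM. Their part in the changes of Gpx3, Gstm5 or Prdx6 was not tested.

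In the hypothalamus no member passed the test. Of the 39 genes that passed the filter on low values (Gpx2 did not), limma called 0, and 0 had an unadjusted p under 0.05. Over all 15761 genes tested limma called 0 (0.0 percent), with 645 (4.09 percent) at an unadjusted p under 0.05, and DESeq2 called 9, of which 0 were members. The 3 genes with the lowest unadjusted p were Slc7a11, Gpx3 and Nfe2l2. Slc7a11 was at 46.1, 51.4 and 45.4 CPM in WT and 51.3, 50.5 and 55.3 CPM in K146Q mice (log2 fold change 0.14, SE 0.06). Gpx3 was at 101, 105 and 125 CPM against 100.02, 83.6 and 107 CPM (-0.19, SE 0.10). Nfe2l2 was at 15.8, 16.4 and 15.8 CPM against 18.9, 18 and 16.4 CPM (0.15, SE 0.08). The adjusted p of these 3 genes was 0.998. Log2 fold changes of the 39 genes ran from -0.19 to 0.24, the upper end being Gstm2 with its 16 to 37 reads. The 5 wider lists gave 0 calls.

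The genotype effect was then compared between tissues in 1 fit of all 18 libraries. For 17 of the 40 genes the thyroid and pituitary effects differed (33.8 percent of 17140 genes), 11 of them with the lower value in the thyroid (17.4 percent of all genes). For 16 the thyroid and hypothalamus effects differed (30.8 percent), and for 3 the pituitary and hypothalamus effects (3.24 percent). Gpx3 differed in all 3 contrasts: its effect was -1.30 in the thyroid, 0.64 in the pituitary and -0.19 in the hypothalamus, a difference of -1.94 between thyroid and pituitary (SE 0.19, limma adjusted p = 9.42e-07). Prdx6 also fell in the thyroid and rose in the pituitary, a difference of -0.98 (SE 0.12, limma adjusted p = 1.25e-05). Gstm5, level in the thyroid at 29.0 ± 4.89 and 29.3 ± 7.14 CPM, differed by -0.78 (SE 0.21, adjusted p = 0.00784). Sod2 fell in the thyroid and was level in the pituitary, at 116 ± 10.8 and 120 ± 2.73 CPM, a difference of -0.80 (SE 0.10, adjusted p = 1.04e-05). Gpx7 (0.94) and Prdx4 (0.60) differed toward the thyroid. Without K146Q mouse 62 the thyroid and pituitary differed for 9 genes (23.7 percent of all genes). None of the 3 differences between pituitary and hypothalamus held in 4 of the 6 fits without a mouse.

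**Figure D5:**
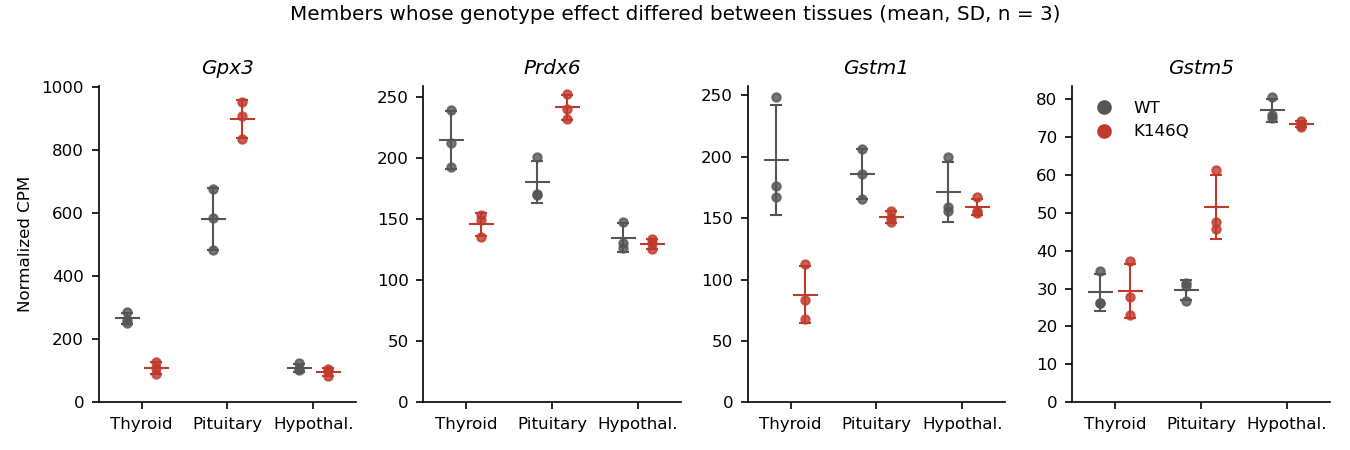
Normalized CPM of Gpx3, Prdx6, Gstm1 and Gstm5 in the 3 tissues, with 1 point per mouse, grey for WT and red for K146Q, and the mean with SD (n = 3). Gpx3 and Prdx6 are lower in K146Q thyroids and higher in K146Q pituitaries. Gstm1 is lower in the thyroid, and its lower mean in the pituitary did not pass the test. Gstm5 is higher in the pituitary.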

How the data were processed

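The deposited tables, 1 per tissue, list 24054 genes. Each library has a signal column that the authors normalized, in CPM after scaling by a library factor. Columns of the authors' own fold changes, p-values and FDR were not used. The factors multiply to 1 over all 18 libraries, so the 3 tables share 1 normalization. The submitters' processing notes name bcl2fastq 2.17, Bowtie2 2.1.0, RSEM 1.2.15 and mm10; the annotation is not given in the sources used here. RSEM shares reads among similar genes. Dividing the deposited signal by the worth of 1 read gave whole reads for 100.0% of 432972 values (tolerance 0.02).

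Samples were grouped by their labels. The 40 genes and all other lists were chosen with earlier results of these data known. Limma 3.58.1 (R 4.3.3) with a mean-variance trend was fitted to log2(CPM + 0.5) of genes with at least 0.5 CPM in 3 of 6 libraries, each tissue separately. The threshold was 0.05 after Benjamini-Hochberg adjustment. Values of Gpx2 in the hypothalamus, which the filter removed, come from an unfiltered fit. Fold changes are on this scale and understate low genes. Differences between tissues came from 6 group means over 18 libraries. The scripts were tested on simulated data. Alternatives were pseudocounts of 0.1 and 1, other filters and scalings, no trend, edgeR 4.0.16 and DESeq2 1.42.0 on the recovered reads, and leaving out each mouse. The design text gives 3 mice per genotype as the source of the tissues, so equal numbers were read as the same animal. Deviations of equal numbers correlated between tissues at -0.03 to 0.17 (18 pairs, 3 above 0.1). Values were printed by mouse for genes with an adjusted p under 0.05, for Gpx3, Txnip, Nfe2l2 and Keap1 in the thyroid, and for the 3 lowest p in the hypothalamus; Srxn1, Gclm, Txnrd1, Gsr, Nqo1, Gpx2, Prdx1, and Slc7a11 in the thyroid and Srxn1 in the pituitary were added after their values were seen, and Duoxa2 was named after its values were seen. The limma p-values rest on the spread between these mice, drawn toward the trend of spread over all genes at that level. Exon lengths and positions come from GENCODE M21 (GRCm38).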

Additional observations from a re-analysis of the deposited data

Results flagged for a closer look

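The results below had genotype effects that differed between tissues by the test of the difference itself, limma over all 18 libraries with an adjusted p below 0.05. Each value is the log2 fold change of K146Q over WT in the first tissue minus that in the second.

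Between thyroid and pituitary the difference was -1.94 for Gpx3, -0.98 for Prdx6, -0.96 for Txnip, -0.88 for Gstm1, -0.80 for Sod2, -0.78 for Gstm5, -0.70 for Cat, -0.68 for Gpx4, -0.51 for Txnrd3, -0.43 for Gss and -0.38 for Prdx5. It was 0.33 for Nfe2l2, 0.52 for Glrx, 0.54 for Mgst1, 0.60 for Prdx4, 0.94 for Gpx7 and 1.36 for Sod3. Of these, Txnrd3, Gss, Prdx5 and Nfe2l2 did not pass the test within either tissue. With the block for mouse number the Nfe2l2 difference missed the threshold (adjusted p = 0.0511).

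Between thyroid and hypothalamus it was -1.11 for Gpx3, -1.08 for Gstm1, -0.81 for Cat, -0.76 for Sod2, -0.73 for Txnip, -0.60 for Gpx4 and -0.50 for Prdx6. It was 0.28 for Prdx3, 0.44 for Prdx2, 0.49 for Gpx1, 0.49 for Glrx, 0.52 for Prdx1, 0.60 for Mgst1, 0.82 for Prdx4, 1.03 for Gpx7 and 1.84 for Sod3. Of these, Prdx1 did not pass the test within either tissue. Between pituitary and hypothalamus it was 0.48 for Prdx6, 0.83 for Gpx3 and 0.85 for Gstm5.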

How the results depend on the processing

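The counts of genes called kept within 1.5 times under most settings, and no called gene changed direction under any of the alternatives run. In the pituitary quantile normalization and the fit without a mean-variance trend each called 3 genes in place of 6. Over all 15589 genes they called 1583 and 1104 in place of 1537. Between pituitary and hypothalamus the fit without the trend called 1 gene in place of 3 (526 in place of 555 of all 17140 genes). With a mouse left out, the thyroid count ran from 10 to 20, the pituitary count from 2 to 6 and the hypothalamus count from 0 to 0. The genes that differed between thyroid and pituitary numbered 9 to 16, between thyroid and hypothalamus 9 to 16, and between pituitary and hypothalamus 0 to 3. Over all genes the same fits called 3602 to 5106 in the thyroid, 625 to 1345 in the pituitary and 0 to 6 in the hypothalamus. For the differences, in the same order, they called 4027 to 5457, 3476 to 4680 and 228 to 446. Such fits rest on 5 mice. Of 96 thyroid values so obtained 72 stayed past the threshold, and of 36 in the pituitary 18. By other settings 154 of 160 thyroid and 49 of 60 pituitary values did. Totals without the 10 highest genes moved the median of all thyroid genes from -0.03 to -0.12. They moved the thyroid and hypothalamus differences from 9 positive and 7 negative to 4 and 12. Over all genes these differences went from 2679 positive and 2602 negative to 2159 and 3354. DESeq2 called 18, 9 and 0 genes in thyroid, pituitary and hypothalamus and edgeR 17, 6 and 0. Over all genes DESeq2 called 5760, 1808 and 9 and edgeR 5640, 1530 and 0, in place of 5739, 1537 and 0. With the replicate block for mouse number, the differences numbered 19, 20 and 3 in place of 17, 16 and 3. Over all 17140 genes they numbered 5955, 5495 and 576 in place of 5790, 5281 and 555. Txnrd2, Nqo1 and Hmox1 were gained and Nfe2l2 lost between thyroid and pituitary, and Prdx5, Txnrd2, Gstm2 and Nqo1 gained between thyroid and hypothalamus. The block changed no other call. The causes were not tested. Depth limits Gpx2 outside the thyroid, at 5 to 22 reads per library, and Gstm2 and Gpx7 in the hypothalamus, at 16 to 37 and 30 to 50 reads.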
